A study of Bos taurus with 6 samples.

Results

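The genes of the mTOR complexes and of the TSC switch that controls them were followed in bovine blastocysts whose oocytes had been matured with or without melatonin (MT). The 10 genes were taken by symbol from a table of 36075 genes, and each of them was found under 1 identifier: the kinase MTOR, the subunits RPTOR and RICTOR, the inhibitors AKT1S1 and DEPTOR, the upstream regulators TSC1, TSC2 and RHEB, and the substrates RPS6KB1 and EIF4EBP1. MTOR was not called different on the deposited scale, at 77.9 ± 5.80 TPM in control and 78.3 ± 2.38 TPM in MT-treated blastocysts (SD, n = 3 each). RPTOR and RICTOR, which define the 2 complexes that MTOR forms, were lower in MT-treated blastocysts, and EIF4EBP1 was 20.2-fold higher.

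mTOR is a serine/threonine kinase that joins growth factor, energy and amino acid signals to cell growth. In mTOR complex 1 (mTORC1) it is held by RPTOR, which presents substrates such as the S6 kinase and the EIF4E-binding proteins and so governs translation. In mTOR complex 2 (mTORC2) it is held by RICTOR, and this complex phosphorylates AKT and SGK kinases. The TSC1 and TSC2 proteins form a complex that switches off the small GTPase RHEB, which in its active form stimulates mTORC1 at the lysosome. Mouse embryos without mTOR arrest around implantation, and partial inhibition of mTOR can hold blastocysts in a paused state.

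The control group comprised blastocysts of Bos taurus from oocytes matured without MT, and the MT-treated group had its oocytes exposed to 1e-07 mol/L MT during a maturation of 22 h. Both groups went through the same fertilization and embryo culture after maturation, and MT was given to oocytes within their cumulus cells rather than to the embryo. Each group had 3 libraries, and each library was made from a pool of 3 blastocysts. The oocytes came from slaughterhouse ovaries, and the study's methods place the 3 libraries of a group in 3 separate production runs, with the treatments side by side within a run, although no label ties a replicate number to a run.

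Values are TPM, the reads of a gene per length as a share of the sum of such values over all genes of the library, and TPM keeps no read counts, so the files do not show the depth behind a value. The listed values summed to between 936783 and 937698 in control and between 912686 and 913707 in MT-treated libraries, so the listed genes do not reach the same total in both groups. The control libraries listed between 8854 and 8953 genes above 0 and the MT-treated libraries between 14372 and 14408. The part of this gap in the contrasts of a gene listed at 0 in control with a value after MT treatment, TSC2 included, was not tested, and TPM cannot show whether such a 0 means that no transcript was present. Whether the libraries of both groups were handled alike up to the table was not tested. On log2(TPM + 1), Pearson correlations over the 11953 tested genes, which are no replicates of each other, ranged from 0.991 to 0.999 inside a group and from 0.544 to 0.546 between the groups. With 95.7% of all tested genes called different between the groups by limma at a Benjamini-Hochberg adjusted p under 0.05, a call in a single gene is the usual case in this table. The table also depends on its scale. The 5988 genes with at least 1 TPM in every library had medians on the log2 scale that were lower by 0.48 in MT-treated than in control libraries. The median of their log2 fold changes was smaller in size, at -0.27. Median centring takes out the shift of 0.48 and so moves each gene by more than their middle gene differed. It is given for members where it changes a direction or a call.

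The labelled tissue was checked against markers. The trophectoderm list (CDX2, GATA3, TFAP2C, KRT8 and KRT18) summed to between 11309 and 11653 TPM in control and between 10436 and 10788 TPM in MT-treated libraries, with all 5 genes detected in the MT-treated libraries and 4 in control, where CDX2 was listed at 0. KRT8 alone carried this lower sum, with means of 8695 TPM in control and 6905 TPM after MT treatment (limma, adjusted p = 3.47e-06), while the other 4 were called higher, and all 5 were higher after median centring. Of the inner cell mass genes, POU5F1 had between 188 and 191 TPM in control and between 191 and 194 TPM in MT-treated libraries, while NANOG was listed at 0 throughout the control group but reached 8.93, 8.23 and 8.88 TPM after MT treatment and KLF4 went from a mean of 18.1 TPM to 83.8 TPM. Of 4 hypoblast genes, 1 was above 0 in all control libraries and 3 in all MT-treated libraries, with sums from 0.20 to 0.44 TPM and from 53.5 to 57.5 TPM. Of 7 cumulus and granulosa cell genes, 6 were in the table and FSHR alone was above 0 in all libraries of a group, between 15.03 and 19.21 TPM over all 6 libraries, with a direction that turned after median centring (log2 fold change of -0.17 on the deposited scale and 0.31 centred). Of 7 maternal oocyte genes, none was above 0 in control and 2 were in all MT-treated libraries, with sums up to 1.44 TPM. The summed inner cell mass genes, from 207.5 to 208.6 TPM in control and from 289.3 to 293.5 TPM after MT treatment, the summed hypoblast genes and 4 of the 5 trophectoderm genes thus moved with the groups in the same direction as TSC2 and EIF4EBP1, and their part in these differences was not tested. In pools of whole blastocysts, a change in the number of cells of a type and a change in RNA per cell cannot be told apart.

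Of the 10 genes, 9 reached the level required for testing (at least 1 TPM in at least 3 libraries). In limma, MT-treated blastocysts had higher levels of 3 and lower levels of 5, while MTOR was not called. Over all tested genes, 61.6% were higher and 34.1% lower. After median centring 5 of the 9 were higher and 4 lower, against 70.4% and 25.4% of all genes, while quantile normalization gave 4 higher and 5 lower, against 55.3% and 38.5%. RICTOR, TSC1 and TSC2 passed the filter only through the group in which they were high, so their calls follow in part from the filter. The groups did not overlap for 7 of the 9 genes, and for 96.1% of all tested genes.

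**Figure D1:**
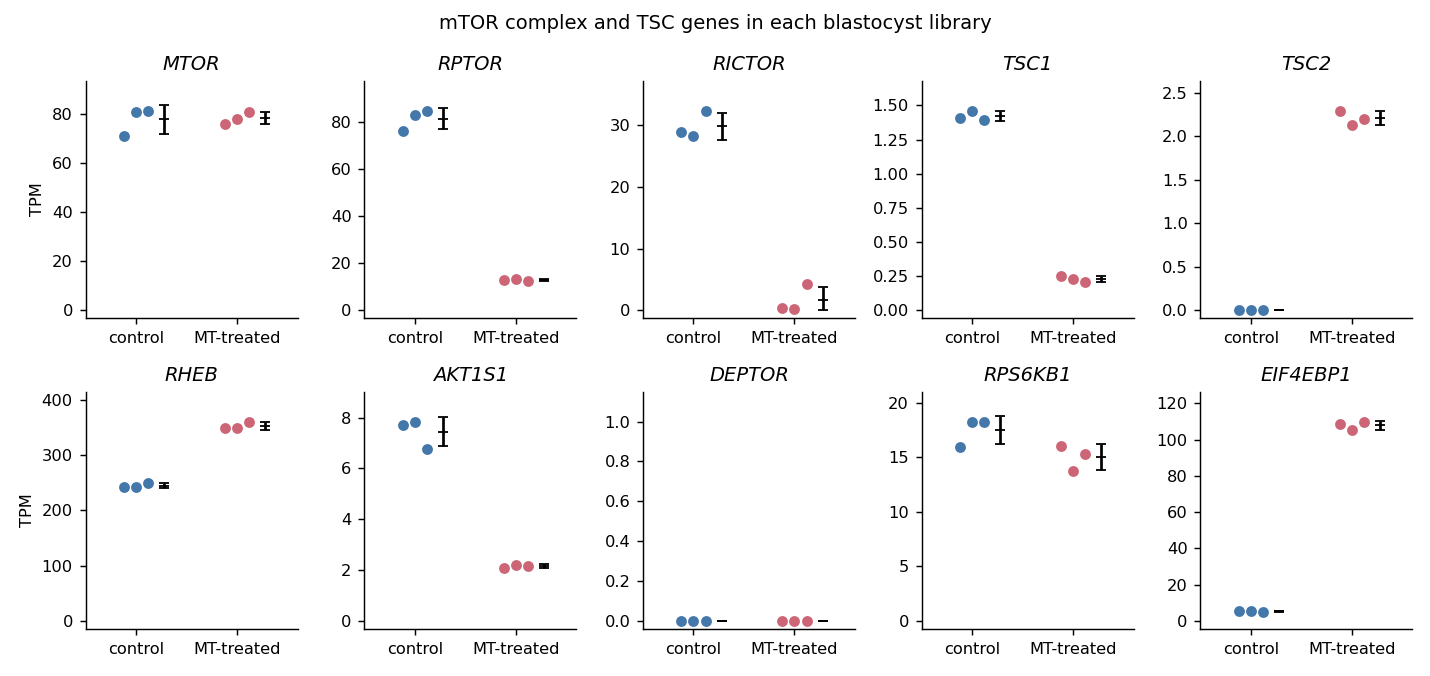
TPM of each of the 10 genes (vertical axes, linear, each panel with its own range) in the 3 control and 3 MT-treated libraries. Points are libraries and the black mark beside them is the mean with its SD, cut at 0 where the lower arm would pass below it. RPTOR, RICTOR, TSC1 and AKT1S1 sit lower and RHEB and EIF4EBP1 higher in all MT-treated libraries, MTOR and RPS6KB1 overlap between groups, TSC2 is listed at 0 in control and DEPTOR is listed at 0 in all 6 libraries.

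MTOR (ENSBTAG00000015325), the catalytic subunit of both complexes, had 71.17, 81.07 and 81.34 TPM in control, against 76.18, 77.96 and 80.89 TPM after MT treatment. All 3 MT-treated values lay within the range of the control values. The log2 fold change was 0.01, with a 95% interval from -0.13 to 0.16 (limma, adjusted p = 0.859). Relative to the median of the 5988 genes with at least 1 TPM in every library, it was higher in MT-treated blastocysts, by 0.49 on the log2 scale (limma after median centring, adjusted p = 0.000183), and with quantile normalization by 0.29 (limma, adjusted p = 0.00514).

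RPTOR (ENSBTAG00000002883), the scaffold that brings substrates to mTORC1, had 76.32, 83.11 and 84.70 TPM in control, against 12.86, 13.46 and 12.63 TPM after MT treatment. Every control library was far above every MT-treated library. The mean was 6.27-fold higher in control, and the log2 fold change was -2.56 (standard error 0.05, limma, adjusted p = 1.72e-08). RPTOR and MTOR overlapped in their levels in control, whereas in MT-treated blastocysts RPTOR lay well below MTOR.

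RICTOR (ENSBTAG00000006697), the defining subunit of mTORC2, had 28.87, 28.23 and 32.32 TPM in control. In the MT-treated libraries it had 0.30, 0.28 and 4.18 TPM. The groups did not overlap, but MT-treated replicate 3 stood well above the other two, and the SD of this group (2.25 TPM) exceeded its mean (1.59 TPM). The log2 fold change was -3.91 (standard error 0.56, limma, adjusted p = 0.000575). Without MT-treated replicate 3 it was -4.58 (limma, adjusted p = 3.86e-07), and without MT-treated replicate 1 or 2 it was -3.58 and -3.57. With a pseudocount of 0.1 it was -5.11. The direction thus did not rest on replicate 3, while the size moved with each MT-treated library and with the added constant.

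Both complexes also hold MLST8, a small subunit that stabilizes the kinase domain, and mTORC2 also holds MAPKAP1 (the subunit mSIN1) and PRR5. MAPKAP1 is named here after its values were seen, to complete the complex. Set against MTOR in the same library, RPTOR stood at 104.6% ± 2.40 of the MTOR level in control and at 16.6% ± 0.864 in MT-treated blastocysts (SD, n = 3 each). MLST8 went from 77.0% ± 5.45 to 18.1% ± 0.456 of MTOR, and RICTOR from 38.4% ± 3.10 to 1.97% ± 2.77 (SD, n = 3 each). This RICTOR mean after MT treatment rests mostly on replicate 3, with 0.394%, 0.359% and 5.17% in replicates 1, 2 and 3. PRR5 was at 100.2% ± 7.76 of MTOR in control and 35.8% ± 0.671 in MT-treated blastocysts (SD, n = 3 each). MAPKAP1 alone of these 5 subunits stood higher against MTOR in MT-treated blastocysts, at 26.1% ± 0.530 against 15.6% ± 1.74 (SD, n = 3 each). These percentages compare TPM, which is per length, and would not change if all values of a library were multiplied by one factor. Quantile normalization does change such relations: under it the log2 fold change of MAPKAP1 was 0.27 and that of MTOR 0.29, so MAPKAP1 no longer stood higher against MTOR. They were chosen after the values were seen and are given without a test.

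**Figure D2:**
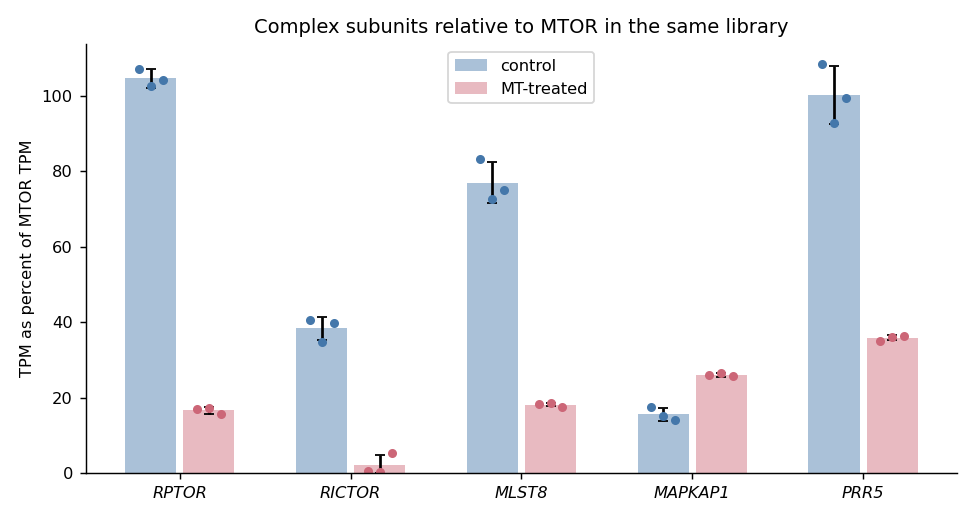
TPM of 5 complex subunits as a percentage of the MTOR TPM of the same library (vertical axis, linear, from 0). Bars are means of 3 libraries, points are libraries, and error bars are the SD, cut at 0 where the lower arm would pass below it. RPTOR is near 100% in control and at 16.6% on average in MT-treated libraries, and RICTOR is the scarcest of the 5 in MT-treated libraries, with replicate 3 at 5.17%.

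The 2 subunits that define the complexes were compared as the log2 ratio of RPTOR to RICTOR, each as TPM + 1. The ratio was 1.37, 1.52 and 1.36 in control and 3.41, 3.50 and 1.40 after MT treatment. MT-treated replicate 3, the library with the high RICTOR value, lay within the control range. The groups overlapped on this scale, with a difference of 1.35 (exact two-sided permutation test, p = 0.2, adjusted over 3 ratios p = 0.2). With a pseudocount of 0.1 they no longer overlapped, with a difference of 2.47 (exact two-sided permutation test, p = 0.1), and without MT-treated replicate 3 the difference was 2.04 with the pseudocount of 1. With 3 libraries in each group, this test cannot give a p under 0.1.

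AKT1S1 and DEPTOR both encode proteins that inhibit mTOR. AKT1S1 (ENSBTAG00000005763), the mTORC1 inhibitor PRAS40 that AKT phosphorylates, had 7.72, 7.84 and 6.78 TPM in control, against 2.08, 2.21 and 2.18 TPM after MT treatment. It was 3.45-fold higher in control, with no overlap between the groups, and its log2 fold change was -1.42 (standard error 0.06, limma, adjusted p = 8.10e-07). DEPTOR (ENSBTAG00000015341), which binds MTOR in both complexes, was listed at 0 in all 6 libraries and was not tested.

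The transcripts of the 2 main TSC proteins differed in opposite directions, both at low levels. TSC1 (ENSBTAG00000005190), hamartin, had 1.41, 1.46 and 1.39 TPM in control, against 0.25, 0.23 and 0.21 TPM after MT treatment. It was 6.17-fold higher in control, and its log2 fold change on the TPM + 1 scale, which understates changes of low genes, was -0.98 (standard error 0.03, limma, adjusted p = 1.29e-07). TSC2 (ENSBTAG00000020617), tuberin, which carries the GTPase-activating domain, was listed at 0 in all 3 control libraries and had 2.29, 2.13 and 2.20 TPM after MT treatment (limma, adjusted p = 1.24e-08). No fold is given against a group listed at 0.

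No library thus listed both TSC transcripts above 1 TPM. The log2 ratio of TSC1 to TSC2, each as TPM + 1, was 1.27 ± 0.0214 in control and -1.38 ± 0.0303 after MT treatment (SD, n = 3 each), a difference of -2.66 with no overlap (exact two-sided permutation test, p = 0.1, the smallest it can give, adjusted over 3 ratios p = 0.15). Its size rests on the added 1 TPM, and with a pseudocount of 0.1 it was -6.73. TSC1 passed the filter only through control and TSC2 only through the MT-treated group. The direction and the lack of overlap thus follow in part from the filter, and the test adds no support. TBC1D7, a further small subunit of the TSC complex, behaved like TSC2: it was listed at 0 throughout the control group but reached 8.46, 8.53 and 8.53 TPM after MT treatment, and it too passed the filter through that group alone. Of all tested genes, 33.8% had 0 TPM in all control libraries and 3.01% in all MT-treated libraries, so a listing at 0 in control was common in this table.

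RHEB (ENSBTAG00000031861), the GTPase that the TSC complex inactivates and the direct activator of mTORC1, was the most abundant of the 10 genes in both groups. It had 242.30, 242.27 and 249.02 TPM in control, against 348.68, 347.91 and 360.03 TPM after MT treatment. The MT-treated values were all higher, by 1.44-fold on average, with a log2 fold change of 0.52 (standard error 0.02, limma, adjusted p = 6.19e-07).

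The 2 translation substrates differed from each other. EIF4EBP1 (ENSBTAG00000027654), which blocks the cap-binding factor EIF4E until mTORC1 phosphorylates it, had 5.58, 5.40 and 5.01 TPM in control, against 108.77, 105.05 and 109.92 TPM after MT treatment. The log2 fold change was 4.11 (standard error 0.04, limma, adjusted p = 1.51e-09). In control it was the lowest but one of the members that were detected there, and in MT-treated blastocysts only RHEB exceeded it.

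RPS6KB1 (ENSBTAG00000016851), the S6 kinase, had 15.96, 18.21 and 18.25 TPM in control, against 16.04, 13.73 and 15.27 TPM after MT treatment. Control replicate 1 lay below MT-treated replicate 1, so the groups overlapped. The log2 fold change was -0.21 (standard error 0.08, limma, adjusted p = 0.0382), and the call was lost without control replicate 2, control replicate 3, MT-treated replicate 2 or MT-treated replicate 3 (limma, adjusted p between 0.0811 and 0.112). After median centring the direction turned, to 0.27 (limma, adjusted p = 0.0125). The log2 ratio of EIF4EBP1 to RPS6KB1, each as TPM + 1, which such scaling leaves unchanged, was -1.37, -1.59 and -1.68 in control and 2.69, 2.85 and 2.77 after MT treatment. The difference of 4.31 exceeded the spread within both groups (exact two-sided permutation test, p = 0.1, the smallest it can give, adjusted over 3 ratios p = 0.15).

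**Figure D3:**
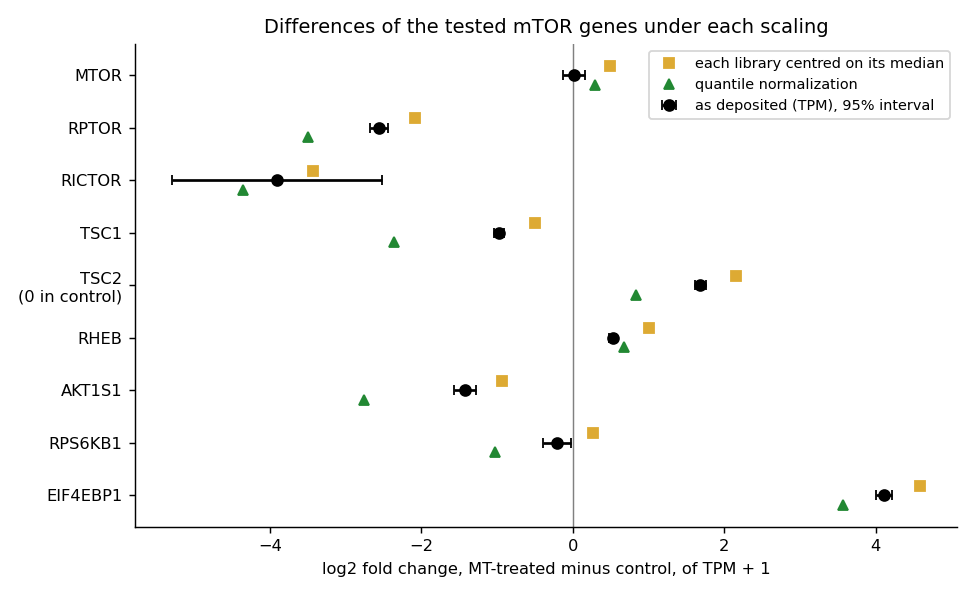
Log2 fold change of TPM + 1, MT-treated minus control (horizontal axis), for the 9 tested genes. Black circles are the deposited scale with the 95% interval from limma, squares are median centring and triangles are quantile normalization. MTOR sits at 0.01 on the deposited scale and above 0 under both other scalings, RPS6KB1 lies on different sides of 0, and the other 7 genes keep their side. The value of TSC2, listed at 0 in control, depends on the added 1 TPM.

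The order of the levels changed between the groups. In control it ran from RHEB through RPTOR, MTOR, RICTOR, RPS6KB1, AKT1S1 and EIF4EBP1 to TSC1, with TSC2 and DEPTOR at 0, and of the detected neighbours only RPTOR and MTOR overlapped in range. In MT-treated blastocysts it ran from RHEB through EIF4EBP1, MTOR, RPS6KB1, RPTOR, TSC2, AKT1S1 and RICTOR to TSC1, with DEPTOR at 0. TSC2 overlapped with AKT1S1 there, and AKT1S1 with RICTOR. The 3 tested genes whose log2(TPM + 1) lay nearest to that of MTOR over the 6 libraries, by Euclidean distance among 10095 genes with a symbol, were PLA2G15 (distance 0.142), UBE2T (0.149) and CALM3 (0.174). Their group means lay between 75.6 and 79.0 TPM, a likeness that the choice itself fixes.

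The wider pathway was described by 4 lists of 81 other genes, of which 79 were in the table and 66 were tested. All 66 were called in limma, 38 higher (57.6%) and 28 lower (42.4%) in MT-treated blastocysts, where 95.7% of all tested genes were called, 61.6% higher and 34.1% lower. Of the 66, 24 (36.4%) were listed at 0 in every control library, near the 33.8% of all tested genes. Genes listed at 0 in all libraries of either group, as well as FLCN, PHLPP1 and TFEB, passed the filter only through the group in which they were high, so their calls follow in part from it. The median log2 fold change of the 66 genes was 0.45, against 1.12 over all tested genes. After median centring 41 were higher and 23 lower, against 70.4% and 25.4% of all tested genes, and with quantile normalization 36 and 30, against 55.3% and 38.5%.

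Of the other complex subunits and assembly factors, 4 of 6 tested genes were higher and 2 lower. MLST8 was lower after MT treatment, at 14.2 ± 0.224 TPM against 59.7 ± 1.18 TPM (SD, n = 3 each), with a log2 fold change of -2.00 (limma, adjusted p = 4.18e-09). PRR5, a partner of RICTOR, was lower after MT treatment, at 28.1 ± 1.36 TPM against 77.8 ± 2.85 TPM (SD, n = 3 each). TTI1, which helps fold and stabilize MTOR and related kinases, was listed at 0 throughout the control group but reached 18.69, 14.37 and 14.73 TPM after MT treatment. MLST8 and PRR5 thus had the direction of RPTOR and RICTOR, while TTI1, like TBC1D7, was above 0 in MT-treated libraries alone. MAPKAP1 went the other way, from 12.1 ± 0.544 TPM in control to 20.4 ± 0.535 TPM after MT treatment (SD, n = 3 each, limma, adjusted p = 5.20e-06).

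Of the genes of amino acid sensing and lysosomal recruitment, 15 of 24 tested genes were higher and 9 lower, with 16 and 7 after median centring and 13 and 11 after quantile normalization. SLC38A9, a lysosomal arginine sensor, was listed at 0 throughout the control group but reached 41.19, 42.97 and 42.98 TPM after MT treatment. RRAGD, one of the Rag GTPases that bring mTORC1 to the lysosome, was also listed at 0 in control but reached 30.17, 36.89 and 61.10 TPM after MT treatment, with replicate 3 the highest. CASTOR1, the cytosolic arginine sensor, went the other way, with 25.02, 25.14 and 24.29 TPM in control and 0 in every MT-treated library. KPTN, a subunit of the KICSTOR complex that acts in amino acid starvation, was lower after MT treatment, at 3.04 ± 0.267 TPM against 22.3 ± 1.38 TPM (SD, n = 3 each). The 2 arginine sensors were thus each listed at 0 in one of the groups. A listing at 0 in every control library, as for SLC38A9, held for 33.8% of all tested genes. One in every MT-treated library, as for CASTOR1, held for 3.01%.

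Of the growth factor, energy and stress inputs, 10 of 17 tested genes were higher and 7 lower. IRS2, an adaptor of the insulin receptor, was listed at 0 in control but reached 16.53, 18.81 and 15.49 TPM after MT treatment. RPS6KA3, a kinase of the ERK pathway that can phosphorylate TSC2, was lower after MT treatment, at 6.66 ± 0.593 TPM against 40.0 ± 0.544 TPM (SD, n = 3 each). PIK3CB, a catalytic subunit of phosphoinositide 3-kinase, was lower after MT treatment, at 41.4 ± 1.36 TPM against 172.9 ± 5.46 TPM (SD, n = 3 each).

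Of the downstream effectors and substrates, 9 of 19 tested genes were higher and 10 lower, and after median centring 11 were higher and 7 lower. TFEB, a transcription factor of lysosomal genes that mTORC1 holds in the cytoplasm, had 0.37, 0.39 and 0.28 TPM in control, against 106.31, 82.26 and 102.28 TPM after MT treatment. EIF4EBP2, a paralogue of EIF4EBP1, was listed at 0 throughout the control group but reached 23.26, 20.92 and 21.33 TPM after MT treatment. PDCD4, an inhibitor of translation initiation that S6 kinase marks for breakdown, was lower after MT treatment, at 20.94, 22.59 and 22.26 TPM against 93.81, 94.16 and 98.66 TPM. LARP1, which binds the mRNAs of ribosomal proteins under control of mTORC1, was lower after MT treatment, at 16.1 ± 0.690 TPM against 62.4 ± 1.54 TPM (SD, n = 3 each).

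**Figure D4:**
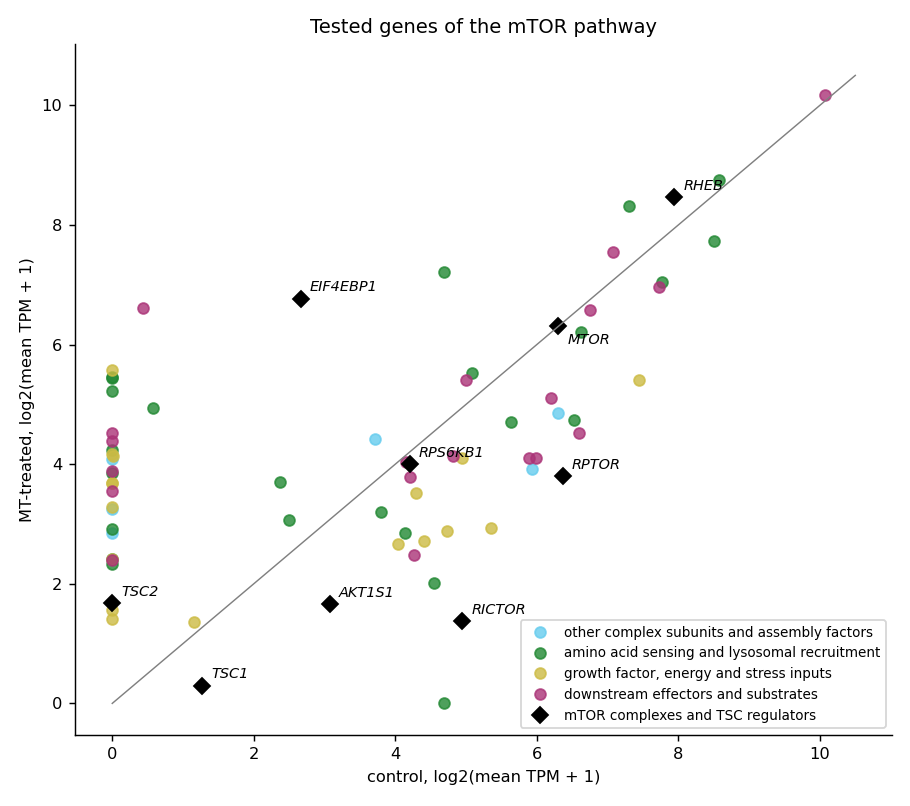
Mean level in MT-treated (vertical axis) against control blastocysts (horizontal axis), both as log2(mean TPM + 1), for the 66 tested genes of the 4 pathway lists (circles, coloured by list) and the 9 tested genes of the mTOR complexes and TSC regulators (diamonds). The grey line marks equal levels. MTOR lies on the line, EIF4EBP1 far above it and RPTOR and RICTOR below it, and the column of points at 0 on the horizontal axis holds the genes listed at 0 in control, TSC2 among them.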

How the data were processed

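RNA-seq of 6 libraries was used. Per the paper, reads were filtered with fastp, checked with FastQC, aligned with STAR and counted with featureCounts. The paper names the genome build ARS-UCD1.3 and the submitters' processing notes name ARS-UCD1.2. The paper names Smart-seq2 and the labels a TruSeq kit. The authors deposited TPM rounded to 2 decimals, and how counts became TPM is not given in the sources used here. The files hold no depth, so no counting interval is given.

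The groups, the replicate numbers and the columns came from the labels. The dose, the maturation time, the pool size and the separate runs came from the paper's methods. Values were transformed to log2(TPM + 1), and 11953 genes with at least 1 TPM in at least 3 libraries were fitted with limma 3.58.1 (lmFit, eBayes with trend) in R 4.3.3, with Benjamini-Hochberg adjustment over all of them at 0.05. For ratios within a library, exact permutation tests, two-sided, were used (scipy 1.17.1), and figures were drawn with matplotlib 3.10.9. The fit was also run on simulated data with few changed genes, no group listed at 0 and no shift between libraries. These settings differ from the data, so that run does not bear on the calls given here. Median centring aligned the libraries on the 5988 genes with at least 1 TPM in all of them. Alternatives tried: a minimum of 5 TPM, no filter, a pseudocount of 0.1, genes above 0 in all 6 libraries, quantile normalization, median centring, eBayes without trend, a replicate block and each library left out, with the tested genes kept.

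The 10 genes and the lists, written from general knowledge, were chosen with earlier results of these data known. The genes named are the 10 members, up to 2 rises and 2 falls with the largest log2 fold change from each of 4 lists among called genes whose groups do not overlap, and the 3 genes nearest to MTOR, and 1 gene that this rule names is not reported here. MAPKAP1, FLCN, PHLPP1, EIF4E, EIF4EBP3 and RPS6KB2 fall outside this rule, were named after their values were seen and were not run under every alternative. CASTOR2, RPS6 and AMH had no row under these symbols and were not analysed here. In the RefSeq table of assembly ARS-UCD2.0, used for names only, all 10 members were found. There MTOR overlaps ANGPTL7, listed at 0 in all 6 libraries, and RPTOR overlaps a non-coding gene without a row. Whether counting used strand is not given in the sources used here.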

Additional observations from a re-analysis of the deposited data

How the results depend on the processing

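RPTOR, RICTOR, TSC1, TSC2, RHEB, AKT1S1 and EIF4EBP1 kept their direction and their call under every alternative that tested them, and so did the genes of the pathway lists that the naming rule chose. The sizes moved. Quantile normalization gave log2 fold changes of -3.49 for RPTOR, -4.36 for RICTOR, -2.36 for TSC1 and -2.76 for AKT1S1. It gave 0.84 for TSC2, 0.67 for RHEB and 3.57 for EIF4EBP1. MTOR, not called on the deposited scale, had a log2 fold change from -0.052 to 0.044 when single libraries were left out, below 0 without control replicate 1 (-0.052) and without MT-treated replicate 3 (-0.012), and was called higher after median centring (0.49) and quantile normalization (0.29). RPS6KB1 turned to 0.27 after median centring, while quantile normalization gave -1.03, and it lost its call without a filter (limma, adjusted p = 0.0773). PLA2G15 was called higher in the same settings (0.53 and 0.33) and without control replicate 3 (0.07). UBE2T and CALM3 turned to 0.45 and 0.43 after median centring and to 0.25 and 0.24 after quantile normalization. Centring adds one amount to all genes of a library, and quantile normalization gives libraries with different numbers of detected genes one distribution. After median centring 5 members were higher. With only genes above 0 in all 6 libraries, the higher and lower genes numbered 1 and 2 among other complex subunits, 7 and 8 in amino acid sensing, 1 and 7 among growth factor inputs and 4 and 10 among downstream effectors, a balance toward lower that follows in part from the setting, which removes the genes listed at 0 in control. With a minimum of 5 TPM, 6 growth factor inputs were higher. Without a filter, most genes had no spread, for which limma warns that its estimate is unreliable. With the replicate block, 3 members were higher and 4 lower, RPS6KB1 losing its call (limma, adjusted p = 0.0780). The deviations of same-numbered libraries correlated at -0.0115, -0.000679 and 0.0588 across genes, and not every library correlated best with its own number, so the numbers were not treated as pairs. The difference in the ratio of RPTOR to RICTOR ranged from 0.99 to 2.04 with single libraries left out, and a pseudocount of 0.1, which ended the overlap of the groups, gave 2.47. TPM holds no depth, so the precision of low values such as TSC1 and TSC2 cannot be set.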

Other observations

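The paralogues of the substrates were summed after their values had been seen, as TPM within a library and without a test. EIF4EBP1, EIF4EBP2 and EIF4EBP3, the proteins that bind and block EIF4E, together had 5.58, 5.40 and 5.01 TPM in control, all of it EIF4EBP1, and 150.84, 148.18 and 149.74 TPM after MT treatment, of which EIF4EBP1 made up 72.1% ± 1.26 (SD, n = 3). EIF4E itself fell from 211.4 ± 3.26 to 123.7 ± 3.89 TPM (SD, n = 3 each; limma, adjusted p = 3.86e-07). The summed binding proteins per EIF4E transcript went from 0.0252 ± 0.00173 to 1.21 ± 0.0387 after MT treatment (SD, n = 3 each). EIF4EBP1 alone, at 107.9 ± 2.55 TPM (SD, n = 3), stayed below EIF4E after MT treatment, so a sum above EIF4E rests on EIF4EBP2 and EIF4EBP3, whose listing at 0 in control has an unknown depth behind it.

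The S6 kinases RPS6KB1 and RPS6KB2 together had 15.96, 18.21 and 18.25 TPM in control, against 29.90, 26.90 and 29.78 TPM after MT treatment. RPS6KB2 was listed at 0 in control, and RPS6KB1 was 52.0% ± 1.44 of the sum in MT-treated blastocysts (SD, n = 3). The higher sum thus rests on RPS6KB2, whose listing at 0 in control has an unknown depth behind it, while RPS6KB1 went from 17.5 to 15.0 TPM on average. In both families the member present in control was joined in MT-treated blastocysts by paralogues listed at 0 in every control library. Such a listing held for 33.8% of all tested genes, so this is no trait of these families alone.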
